A study of Mus musculus with 9 samples.

Results

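The genes described here encode chemokines and B cell growth factors made largely by the intestinal epithelium and its neighbouring cells. They are Ccl25, Ccl28, Ccl20, Cxcl16, Cx3cl1, Cxcl1, Il18, Cxcl13, Tnfsf13b and Tnfsf13, chosen by name as 10 members. Affymetrix arrays of mouse distal small intestine carried 21 probe sets annotated to exactly 1 of these symbols, and they covered 9 of the 10 members among 18193 genes with a probe set of their own. Tnfsf13 had none, because its probe set is shared with the neighbouring Tnfsf12 and Tnfsfm13, so no value is given for it.

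All mice had carried the common gut bacterium Bacteroides thetaiotaomicron for 10 days. The small intestine was cut into 16 equal lengths, and RNA came from a pool of whole lengths 10, 11, 12 and 14. There were 9 arrays in 3 groups of 3, named Rag1, BP and B6. The Rag1 group was labelled as tissue from Rag1 mice, named for a recombinase without which mature B and T cells do not form. The BP group carried the same Rag1 tissue label, and what BP stands for is not said. The B6 group was labelled wild type. Age and sex are not given in the labels, nor whether an array stands for a separate mouse, so p-values measure only the spread between these samples. The series title gives the question as the effect of IgA, the main antibody of mucosal secretions.

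Chemokines are small secreted proteins that draw cells carrying the matching receptor. In the gut, Ccl25 and Ccl28 draw lymphocytes and antibody-secreting cells to the mucosa, Ccl20 draws cells with the receptor Ccr6, and Cxcl13 draws B cells into follicles. Tnfsf13b (BAFF) and Tnfsf13 (APRIL) keep B cells and plasma cells alive and promote the switch to IgA, while Il18 is an epithelial cytokine released after cleavage by caspase-1.

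None of the 9 measured genes passed the test in any of the 3 comparisons. This was so although Rag1 and B6 tissue differed strongly in lymphocyte transcripts. The largest difference was in Il18, which read 362 to 547 in Rag1 and 87.1 to 149 in B6, a log2 difference of -1.71 ± 0.40 (SE, n = 3 per group; adjusted p = 0.220). Next came Cx3cl1, which read 709 to 944 in Rag1 and 377 to 436 in BP, a log2 difference of -0.85 ± 0.22 (adjusted p = 0.0589). Both missed the threshold in the fit of all 9 arrays and passed it under some other settings, given below with each gene. Ccl25, by contrast, had narrow intervals around small differences.

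Intensities are the deposited linear values. Differences are between group means of log2(intensity + 16) after quantile normalization, with the moderated standard error of limma. A gene is called changed when its Benjamini-Hochberg adjusted p over all 27022 tested probe sets is under 0.05, and each gene is represented by its brightest tested probe set. For B6 minus Rag1, limma called 0 of 9 members, where 0.391% of the 13570 tested genes were called, and 1 of 9 had an unadjusted p under 0.05 against 5.80% of all genes. For BP minus Rag1 it called 0 of 9, where 3.26% of all genes were called, and 4 of 9 had an unadjusted p under 0.05 against 19.1%. For B6 minus BP it called 0 of 9, where 0.582% were called, and 3 of 9 had an unadjusted p under 0.05 against 13.9%. The median log2 difference of the 9 genes was -0.06, -0.07 and 0.16 in the same order, beside 0.02, -0.02 and 0.04 over all tested genes. After normalization the arrays of B6 all lay above those of Rag1 for 2 members and below for 1, where 10.5% and 8.43% of all genes did so (19.0% either way). BP lay wholly above Rag1 for 2 and below for 1, against 10.0% and 13.1% (23.1%), and B6 above BP for 2 and below for 2, against 11.8% and 7.34% (19.2%).

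The arrays of a group were not equally alike. Over tested probe sets the median within-group SD on the log2 scale was 0.21 for Rag1, 0.44 for BP and 0.23 for B6. The beta-actin controls give a 3' to 5' ratio that is high for degraded RNA, and it ran from 1.53 to 1.77 in Rag1 and from 1.76 to 4.17 in B6, but was 14.2, 2.43 and 20.2 on BP replicates 1, 2 and 3. The brightest probe set of Xist, a transcript of the inactive X chromosome of females, read at most 24.1 on the Rag1 arrays, 36.0, 624 and 1735 on the BP arrays and at least 1086 on the B6 arrays. Sex-linked signal and group therefore cannot be told apart in B6 minus Rag1, nor between BP replicates 2 and 3 and the Rag1 arrays.  All 10 epithelial markers were tested and their summed intensity was 60507 to 66405 in Rag1, 52831 to 58087 in BP and 62338 to 66464 in B6. Epcam, an adhesion protein of epithelial cells, was called lower in BP than in Rag1 (-0.47 ± 0.11, adjusted p = 0.0389, and 0.00862 to 0.428 under the alternatives, with 10 of 22 below 0.05). It was the only 1 of the 10 called in that comparison, where 3.26% of all genes were called. Its other tested probe set gave -0.14 (adjusted p = 0.860). By brightest probe sets 7 of the 10 were lower in BP, and 3 were higher: Krt18 (0.39), Krt8 (0.05) and Cdh1 (0.01). The summed intensity of the 8 tested B and plasma cell markers was 241 to 280, 263 to 342 and 3314 to 9496 in Rag1, BP and B6. That of the 5 tested T cell markers was 169 to 196, 168 to 236 and 745 to 897. In whole tissue, fewer cells of a type and less RNA per cell cannot be told apart.

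**Figure D1:**
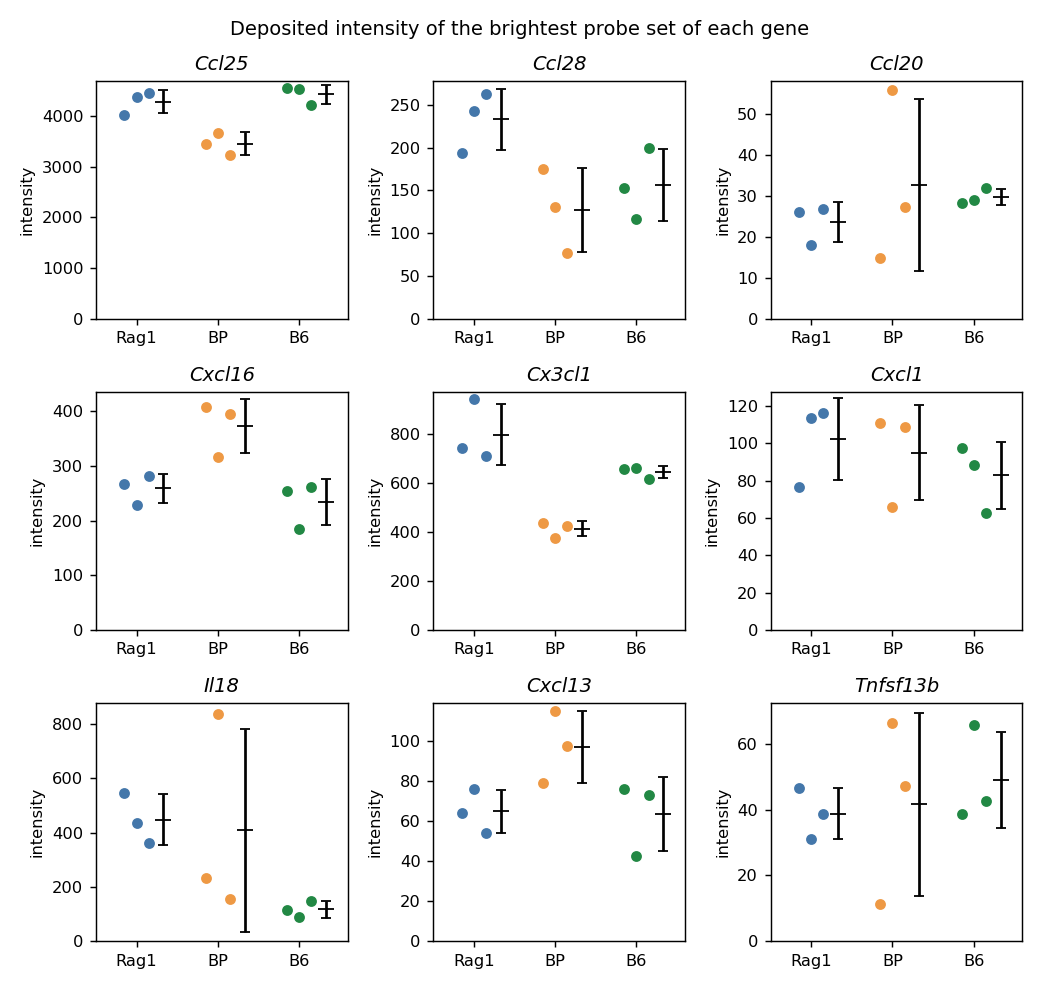
Deposited intensity (linear axis from 0) of the brightest probe set of each measured gene on every array, with coloured points for replicates 1 to 3 from left to right and a black bar for mean ± SD (n = 3). The B6 points of Il18 all lie below the Rag1 points, the BP points of Cx3cl1 all lie below the other groups, and 1 BP array of Il18 stands at 838.

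Among the homing chemokines, Ccl25 was measured most precisely. It draws T cells and antibody-secreting cells that carry Ccr9 to the small intestine. Its brighter probe set read 4025, 4374 and 4458 on Rag1 replicates 1 to 3, 3458, 3677 and 3234 on the BP arrays and 4549, 4540 and 4217 on the B6 arrays. In these deposited values every BP array was below every array of the other groups, while Rag1 and B6 overlapped. The difference was 0.05 ± 0.11 for B6 minus Rag1 (95% interval -0.20 to 0.30, adjusted p = 0.999), -0.17 ± 0.11 for BP minus Rag1 (-0.42 to 0.07, adjusted p = 0.437) and 0.22 ± 0.11 for B6 minus BP (-0.02 to 0.47, adjusted p = 0.397). After normalization BP and Rag1 overlapped, while B6 stayed above BP. The dimmer probe set of Ccl25, at 32.4 to 66.8, gave 0.20, -0.33 and 0.53 in the same order, and none passed.

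Ccl28 is made by mucosal epithelia and draws IgA-producing cells through Ccr10. Its only tested probe set read 194, 243 and 263 on the Rag1 arrays, 175, 130 and 76.8 on the BP arrays and 153, 116 and 200 on the B6 arrays. Mean intensities were 233 ± 35.4 in Rag1, 156 ± 41.7 in B6 and 127 ± 49.2 in BP (SD, n = 3). The BP values all lay below the Rag1 values in the deposited data but overlapped with them after normalization, with a difference of -0.76 ± 0.31 (adjusted p = 0.193). B6 overlapped with both groups, at -0.43 ± 0.31 against Rag1 (adjusted p = 0.999) and 0.33 ± 0.31 against BP (adjusted p = 0.690). The order Rag1, B6, BP therefore holds no pair of neighbours that differed beyond their spread. With BP replicate 2 as the only BP array, assumed to vary like the other arrays, the BP difference was -1.01 (adjusted p = 0.0305), where 22.1% of all probe sets were called. The other probe sets of Ccl28 were too dim for testing, at 3.22 to 57.1.

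Ccl20 attracts dendritic cells and B cells with Ccr6 to lymphoid follicles. It read 26.2, 18.0 and 26.9 on the Rag1 arrays, 14.8, 55.9 and 27.3 on the BP arrays and 28.2, 28.9 and 31.9 on the B6 arrays. The B6 arrays lay just above the Rag1 arrays, and the BP arrays spanned both. The difference was 0.31 ± 0.28 for B6 minus Rag1 (95% interval -0.29 to 0.92, adjusted p = 0.999), 0.15 ± 0.28 for BP minus Rag1 (adjusted p = 0.827) and 0.16 ± 0.28 for B6 minus BP (adjusted p = 0.842). These values are near the lowest brightness tested, an intensity of about 23.5, and its single probe set limits what can be seen.

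Cxcl1, a neutrophil attractant that acts through Cxcr2, showed no difference between the groups that passed. Its brighter tested probe set read 76.8, 114 and 116 in Rag1, 111, 65.9 and 109 in BP and 97.4, 88.5 and 62.8 in B6, and the groups overlapped throughout. The differences were -0.09 ± 0.34, 0.01 ± 0.34 and -0.10 ± 0.34 for B6 minus Rag1, BP minus Rag1 and B6 minus BP, with adjusted p between 0.932 and 0.999. The sign of all 3 turned under some alternatives. The 95% interval for B6 minus Rag1 ran from -0.84 to 0.67, so the data allow differences of either sign within these bounds. The dimmer tested probe set of Cxcl1 gave 0.11 ± 0.26, 0.21 ± 0.26 and -0.10 ± 0.26 in the same order, and none passed. Its remaining probe set was too dim for testing, at 1.72 to 57.2. All 7 granulocyte markers with a probe set, among them S100a8 and S100a9, were too dim to be tested.

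Ccl20 and Cxcl1 are textbook targets of the transcription factor NF-kB, so the 250 bases before the start of each gene were searched on both strands for a form of the NF-kB site (GGG, any 3 bases, TTCC). The sites of interferon signalling, GAS (TTC, any 3 bases, GAA) and ISRE (GAAA, any 2 bases, GAAA), were searched in the same way. Sequences come from RefSeq in build GRCm38.p6, which held 11 windows for 9 members and none for Cxcl16. The windows shown are those of the members with an NF-kB match and of Il18, which had the largest difference between groups. They are chr9:50554450-50554699 for Il18, chr5:90890995-90891244 for Cxcl1 and chr1:83116516-83116765 for Ccl20, all on the + strand, 5′ to 3′, with motif matches in capitals.
Il18: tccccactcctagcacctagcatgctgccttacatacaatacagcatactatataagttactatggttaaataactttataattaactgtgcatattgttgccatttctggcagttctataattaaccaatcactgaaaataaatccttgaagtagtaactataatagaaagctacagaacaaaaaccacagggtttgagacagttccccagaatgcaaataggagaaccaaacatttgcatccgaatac
Cxcl1: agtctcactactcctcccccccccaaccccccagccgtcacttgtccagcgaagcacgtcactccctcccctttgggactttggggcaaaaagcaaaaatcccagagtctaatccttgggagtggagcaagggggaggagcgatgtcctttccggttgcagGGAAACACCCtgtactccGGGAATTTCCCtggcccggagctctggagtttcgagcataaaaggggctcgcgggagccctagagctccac
Ccl20: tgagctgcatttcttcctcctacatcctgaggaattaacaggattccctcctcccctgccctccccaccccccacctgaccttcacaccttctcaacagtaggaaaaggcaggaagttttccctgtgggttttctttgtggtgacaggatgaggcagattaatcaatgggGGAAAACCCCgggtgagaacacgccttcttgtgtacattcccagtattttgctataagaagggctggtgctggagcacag
The Ccl20 window held 1 match, bases 80 to 71 before the start, read on the opposite strand. The Cxcl1 window held 3, of which those from base 71 and from base 70 overlap on opposite strands. The Il18 window held none of the 3 motifs, and neither did the windows of Ccl25, Ccl28, Cx3cl1, Cxcl13 and Tnfsf13. One of the Tnfsf13b windows held an ISRE match, GAAAGTGAAA. Of 32851 promoter windows of this length, 4.65% held the NF-kB form, 7.02% the GAS form and 2.98% the ISRE form. A match is a run of letters and not a measured binding site.

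Cx3cl1 and Cxcl16 are made as membrane-bound chemokines on stalks and can be shed by the proteases Adam10 and Adam17. Cx3cl1 binds Cx3cr1 on macrophages and dendritic cells. Its brightest probe set read 744, 944 and 709 on the Rag1 arrays, 436, 377 and 427 on the BP arrays and 658, 662 and 619 on the B6 arrays. All BP arrays lay below all others, and in these intensities all B6 arrays lay below all Rag1 arrays, which overlapped after normalization. The order of the mean intensities was Rag1 at 799 ± 127, B6 at 646 ± 24.0 and BP at 413 ± 31.6 (SD, n = 3). On the log2 scale BP was lower than Rag1 by -0.85 ± 0.22 (95% interval -1.34 to -0.36, adjusted p = 0.0589) and B6 higher than BP by 0.59 ± 0.22 (0.10 to 1.08, adjusted p = 0.246). B6 against Rag1 gave -0.26 ± 0.22 (-0.75 to 0.23, adjusted p = 0.999).

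The BP minus Rag1 difference of Cx3cl1 kept its sign under all 22 alternatives and passed the threshold under 7 of them. Adjusted p ranged from 0.00233 to 0.303. It passed with median centring (0.0343), with the deposited values left unscaled (0.0251), with the lowest 60% of probe sets left out (0.0471), with array weights (0.0350), with the actin ratio as a covariate (0.00625), with BP replicate 2 as the only BP array (0.00233) and without BP replicate 2 (0.0167). In these fits 4.49%, 2.85%, 7.25%, 14.9%, 15.5%, 22.1% and 19.6% of all probe sets were called. For B6 minus BP, Cx3cl1 kept its sign throughout, with estimates from 0.38 to 1.00, and passed under 2 alternatives, the actin covariate (0.88, adjusted p = 0.0175) and BP replicate 2 alone (1.00, adjusted p = 0.00847), where 12.9% and 21.1% of probe sets were called. Without BP replicate 2 it was 0.38 (adjusted p = 0.161). The second probe set was also lower in BP in the deposited values, at 178, 159 and 178 in Rag1 against 133, 139 and 138 in BP. After quantile normalization its BP and Rag1 arrays overlapped, with a difference of -0.17 ± 0.22 (adjusted p = 0.728). The dimmest tested probe set gave -0.69 ± 0.55 (adjusted p = 0.542). With the mean of the probe sets the gene's BP minus Rag1 difference was -0.57 (adjusted p = 0.303). For B6 minus BP the second probe set showed almost no difference, at 0.0094 ± 0.22 (adjusted p = 0.990). The dimmest gave 0.55 ± 0.55 for B6 minus BP (adjusted p = 0.708). In BP minus Rag1 Epcam was called lower, the only 1 of 10 epithelial markers called. The smooth muscle genes Myh11 (-1.51, adjusted p = 0.0134) and Des (-0.69, adjusted p = 0.0485) were also called lower. A dimmer probe set of Myh11 gave 0.24 (adjusted p = 0.760). Myh11 and Des were the 2 of 10 stromal and smooth muscle markers called, where 3.26% of all genes were called. The Des call passed in 5 of 22 alternatives (adjusted p up to 0.190) and that of Myh11 in 19 (up to 0.167). Of the 10 markers 4 had a positive difference, among them Acta2, also a smooth muscle gene (0.35, adjusted p = 0.166), Pdgfrb (0.65, adjusted p = 0.164) and Vim (0.67, adjusted p = 0.111), which did not pass. The part of epithelial, stromal and muscle content in the Cx3cl1 value was not tested. Of 6 endothelial markers, limma called 0 in any comparison. For B6 minus Rag1, BP minus Rag1 and B6 minus BP, 0, 3 and 2 had an unadjusted p under 0.05. Over all tested genes 5.80%, 19.1% and 13.9% had such a p.

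Cxcl16 draws T cells and innate lymphoid cells with Cxcr6, and its probe sets pointed in opposite directions. The brighter read 266, 229 and 282 in Rag1, 409, 316 and 395 in BP and 254, 185 and 261 in B6. All BP arrays were above all others, although after normalization BP and B6 overlapped. The other probe set read 331, 329 and 348 in Rag1, 201, 283 and 225 in BP and 217, 153 and 294 in B6, with all BP and B6 arrays below Rag1. For BP minus Rag1 the first gave 0.61 ± 0.25 (adjusted p = 0.206) and the second -0.39 ± 0.24 (adjusted p = 0.394). For B6 minus Rag1 they gave -0.06 ± 0.25 and -0.52 ± 0.24 (adjusted p = 0.999 and 0.880), and for B6 minus BP -0.67 ± 0.25 and -0.13 ± 0.24 (adjusted p = 0.244 and 0.849). No direction can be given for the gene.

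The brighter Cxcl16 probe set followed BP replicates 1 and 3. Its normalized log2 value was 8.91 and 8.90 on those arrays and 8.12 on BP replicate 2, beside 7.96 to 8.10 on the Rag1 arrays. Without BP replicate 2, whose actin ratio was the lowest of the BP group, the difference from Rag1 was 0.88 (adjusted p = 0.00522), and with array weights it was 0.80 (adjusted p = 0.0168). In these fits 19.6% and 14.9% of all probe sets were called. B6 minus BP was -0.94 without BP replicate 2 (adjusted p = 0.00687), where 11.3% of probe sets were called. With the actin ratio as a covariate BP minus Rag1 was -0.10 (adjusted p = 0.828), and with the mean of the probe sets it was 0.11. The highest actin ratios and the highest values of the brighter Cxcl16 probe set stood on the same arrays. In deposited values BP replicate 2, with an actin ratio of 2.43, read 316. That was also above every Rag1 array (at most 282) and every B6 array (at most 261). The part of RNA quality in the Cxcl16 values was not tested.

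**Figure D2:**
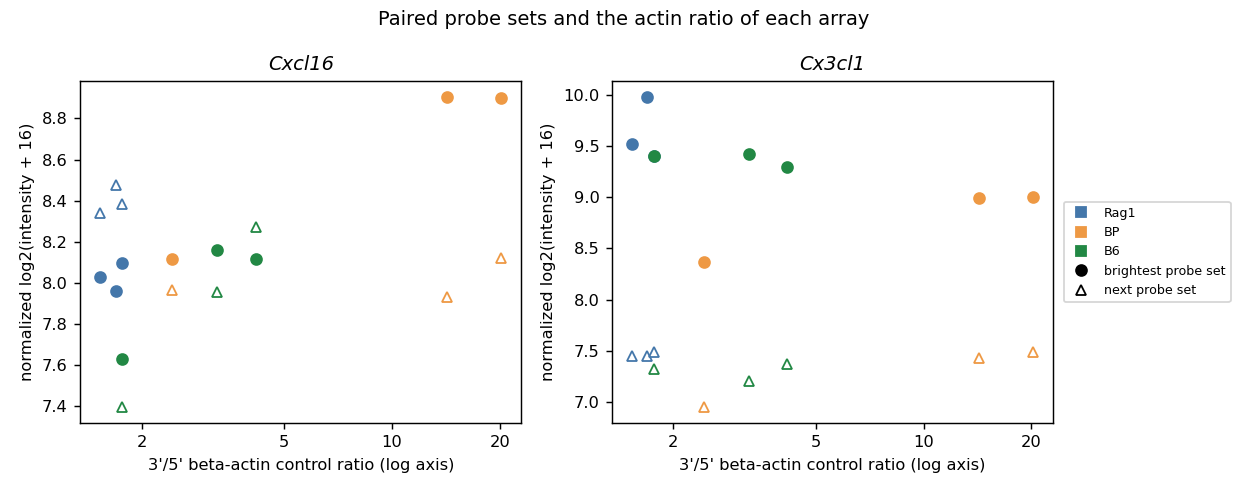
Normalized log2(intensity + 16) of the brightest (filled circles) and next probe set (open triangles) of Cxcl16 and Cx3cl1 against the 3' to 5' beta-actin ratio of each array (log axis), 9 arrays coloured by group. The brightest Cxcl16 probe set is highest on BP replicates 1 and 3, at ratios of 14.2 and 20.2, while the brightest Cx3cl1 probe set is lowest on BP replicate 2, and Rag1 replicate 3 lies under B6 replicate 2 in the right panel.

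Il18 is a cytokine of the interleukin-1 family that epithelial cells store as a precursor. Its single probe set read 547, 434 and 362 on Rag1 replicates 1 to 3, 233, 838 and 154 on the BP arrays and 114, 87.1 and 149 on the B6 arrays. Every B6 array was below every Rag1 array and every BP array, while the BP arrays ran from below the lowest to above the highest Rag1 array. The mean intensity was 448 ± 93.6 in Rag1, 408 ± 374 in BP and 117 ± 31.0 in B6 (SD, n = 3). B6 stood at 0.261 of the Rag1 mean on the linear scale. B6 minus Rag1 was -1.71 ± 0.40 (95% interval -2.59 to -0.82, adjusted p = 0.220), B6 minus BP was -1.33 ± 0.40 (-2.22 to -0.45, adjusted p = 0.156) and BP minus Rag1 was -0.37 ± 0.40 (-1.25 to 0.51, adjusted p = 0.677).

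The call of Il18 in B6 against Rag1 differed between settings, and the cause was not tested. With only the Rag1 and B6 arrays in the fit the estimate was the same and the standard error was 0.21 (adjusted p = 0.00157), where 1.25% of probe sets were called. It also passed with array weights (adjusted p = 0.000223), with the actin ratio as a covariate (-1.36, adjusted p = 0.0426), with BP replicate 2 as the only BP array (0.00142) and without BP replicate 2 (0.00114), where 3.89%, 1.09%, 1.25% and 1.31% of probe sets were called. In the other 17 alternatives it did not pass. Over all 22, the estimate lay between -1.88 and -1.36 and the adjusted p between 0.000223 and 0.820. Xist moved with this comparison as well, and sex-linked signal and group cannot be told apart in it. BP against Rag1 depended on 1 array. It was -0.90 without BP replicate 2 (adjusted p = 0.0217), where 19.6% of probe sets were called. With BP replicate 2 alone it was 0.68. B6 minus BP passed with the actin covariate (-2.04, adjusted p = 0.00386) and with BP replicate 2 alone (-2.38, adjusted p = 0.000342), where 12.9% and 21.1% were called, and was -0.81 without BP replicate 2 (adjusted p = 0.0513).

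**Figure D3:**
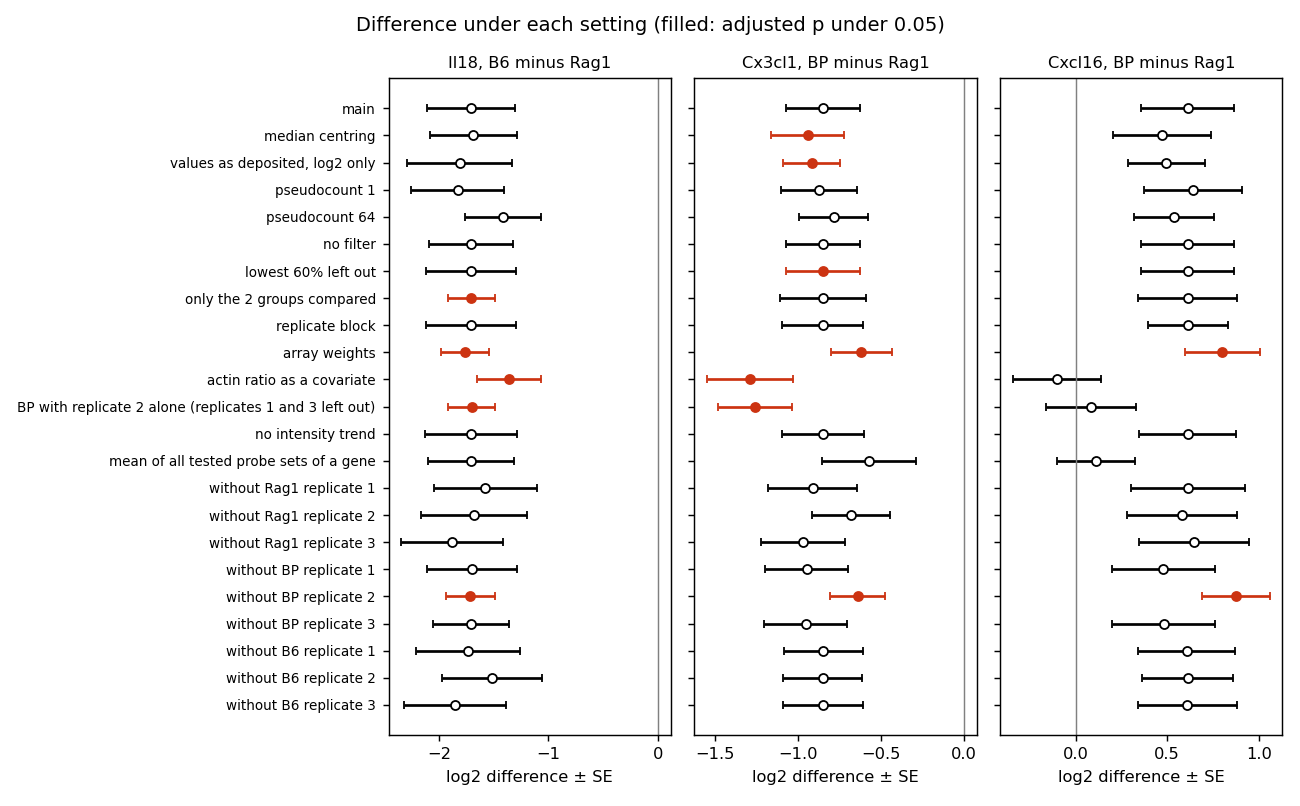
Log2 difference ± SE of Il18 in B6 minus Rag1, and of Cx3cl1 and Cxcl16 in BP minus Rag1, in the reported fit (top) and under 22 alternatives (rows); filled red points have an adjusted p under 0.05. Il18 and Cx3cl1 stay below 0 in every row and pass in 5 and 7 alternatives, while Cxcl16 passes in 2 and lies at -0.10 with the actin covariate.

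Because no member passed, likeness was measured for Il18, the member with the smallest p. Over the 9 arrays the genes whose normalized values correlated most with it were Vnn1 (r = 0.98), which encodes the enzyme pantetheinase, Man1a (r = 0.98), a mannosidase that trims sugar chains on proteins, and Csmd3 (r = 0.97). Vnn1 read 2010 to 2501 in Rag1, 1861, 3227 and 1348 in BP and 931 to 1271 in B6. As for Il18, its highest array was BP replicate 2 and its B6 arrays lay below all others. The B6 minus Rag1 difference of Vnn1 was -0.97 ± 0.22 (adjusted p = 0.204). These correlations share groups and arrays and carry no p.

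The partners of Il18 were looked at next. Il18bp, the secreted protein that neutralizes Il18, read 85.7, 125 and 122 in Rag1, 13.9, 53.4 and 46.8 in BP and 94.4, 293 and 71.4 in B6. All its BP values were below those of both other groups. The difference was -1.27 ± 0.43 for BP minus Rag1 (adjusted p = 0.124) and 1.63 ± 0.43 for B6 minus BP (adjusted p = 0.123), and neither passed. Casp1, which cleaves the Il18 precursor, differed by 0.12 for B6 minus Rag1 (adjusted p = 0.999). By their brightest probe sets, 0 of the 9 genes listed for binding, cleavage or shedding of these factors passed in limma in any comparison. At an unadjusted p under 0.05 there were 0, 1 and 1 for B6 minus Rag1, BP minus Rag1 and B6 minus BP, both times Il18bp. Over all tested genes 5.80%, 19.1% and 13.9% had such a p. By p, the syndecan Sdc1 (-0.35) and Adam10 came first for B6 minus Rag1, Sdc1 followed Il18bp for BP minus Rag1 (-0.61, adjusted p = 0.274), and the scavenging receptor Ackr1 followed it for B6 minus BP (-0.30, adjusted p = 0.673). A dimmer probe set of Sdc1 was called lower in BP than in Rag1 (-2.46, adjusted p = 0.0172), while another gave 1.02 (adjusted p = 0.152), so the probe sets of Sdc1 pointed in opposite directions. The brightest probe sets of Adam10 and Adam17 gave -0.30 and -0.02 for B6 minus Rag1 and -0.16 and -0.21 for BP minus Rag1. Dimmer ones gave lower values for BP minus Rag1, at -1.61 and -0.55 for Adam10 (adjusted p = 0.0890 and 0.291) and -0.96 and -0.48 for Adam17 (adjusted p = 0.163 and 0.539). For B6 minus Rag1 the same probe sets gave -1.12 and 0.17 for Adam10 (adjusted p = 0.860 and 0.999). Those of Adam17 gave -0.41 and -0.61 (adjusted p = 0.999 for both). None of these passed.

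Turning to factors for B cells, Cxcl13 guides B cells with Cxcr5 into follicles. Its brighter probe set read 64.1, 76.0 and 54.1 in Rag1, 79.0, 115 and 97.4 in BP and 75.8, 42.4 and 73.0 in B6. All BP arrays lay above all others, and Rag1 and B6 overlapped. BP minus Rag1 was 0.58 ± 0.26 (adjusted p = 0.243), B6 minus BP was -0.47 ± 0.26 (adjusted p = 0.450) and B6 minus Rag1 was 0.12 ± 0.26 (95% interval -0.46 to 0.69, adjusted p = 0.999). The dimmer probe set gave 0.55 ± 0.32, -0.04 ± 0.32 and 0.51 ± 0.32 in that order. Of the 6 follicular dendritic cell markers, 5 were tested and 0 passed in limma, with 0 to 1 at an unadjusted p under 0.05. Such a p was found for 5.80% of all tested genes in B6 minus Rag1, 19.1% in BP minus Rag1 and 13.9% in B6 minus BP.

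Tnfsf13b read 46.6, 31.1 and 38.6 on the Rag1 arrays, 11.4, 66.3 and 47.2 on the BP arrays and 38.8, 65.8 and 42.7 on the B6 arrays. The groups overlapped in these intensities, and after normalization the B6 arrays lay above the Rag1 arrays. The difference was 0.38 ± 0.34 for B6 minus Rag1 (95% interval -0.36 to 1.11, adjusted p = 0.999), -0.07 ± 0.34 for BP minus Rag1 (adjusted p = 0.937) and 0.45 ± 0.34 for B6 minus BP (adjusted p = 0.592). Its other probe sets were too dim for testing, at 1.00 to 55.1. B and plasma cell transcripts differed far more: Igha, the constant region of IgA, was higher in B6 than in Rag1 by 5.44 (adjusted p = 3.61e-05).

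**Figure D4:**
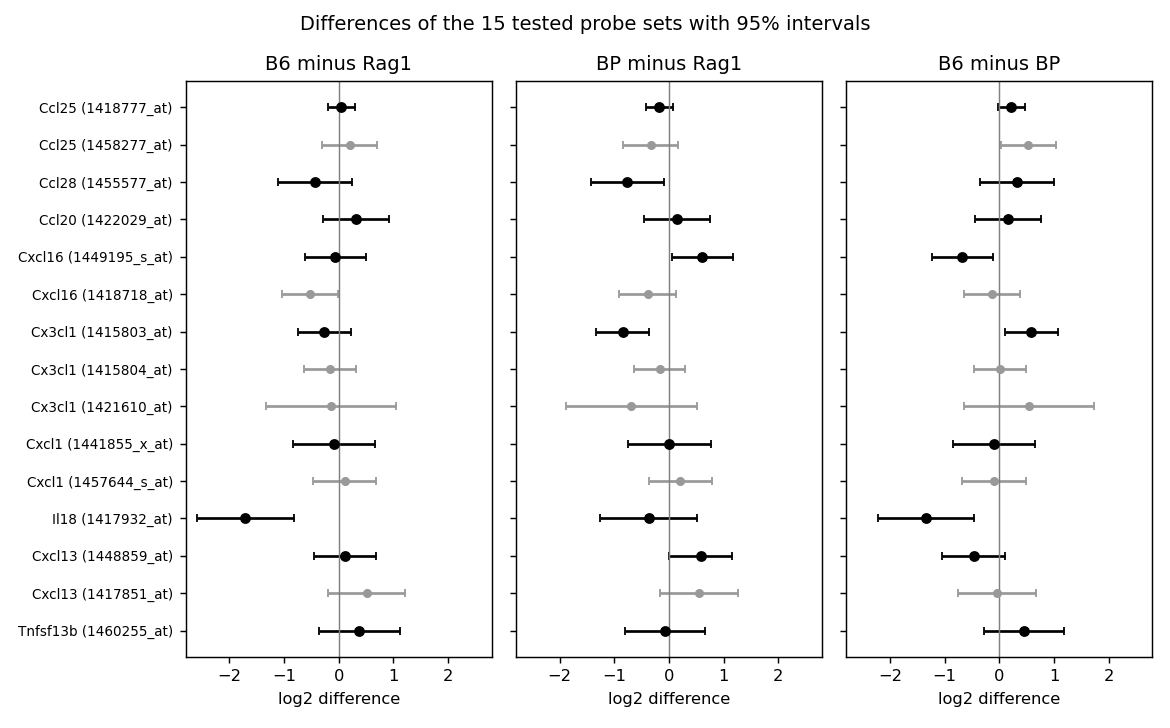
Log2 differences with 95% intervals for the 15 tested probe sets of the 9 genes in the 3 comparisons (n = 3 arrays per group); black marks the brightest probe set of a gene and grey the others. The Il18 interval lies farthest from 0 in B6 minus Rag1 (-2.59 to -0.82), the Ccl25 interval is the narrowest, and the points of the Cxcl16 probe sets sit on opposite sides of 0 in BP minus Rag1 (0.61 and -0.39).

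Of the 13 receptors of these factors, 8 had a tested probe set and none passed: limma gave 0 calls in each comparison, and 0 with an unadjusted p under 0.05. For B6 minus Rag1, BP minus Rag1 and B6 minus BP, 0.391%, 3.26% and 0.582% of all tested genes were called. Such an unadjusted p was found for 5.80%, 19.1% and 13.9% of them. Ccr9, the Ccl25 receptor, read 29.9 to 81.3 in Rag1, 39.3 to 51.5 in BP and 32.2 to 78.6 in B6, and differed by 0.12 for B6 minus Rag1. The other B6 minus Rag1 values were 0.26 for Ccr6, -0.27 for Cx3cr1, 0.29 for Cxcr5, 0.19 for Il18r1, 0.09 for Il18rap, 0.26 for the BAFF and APRIL receptor Tnfrsf13b (TACI) and -0.10 for the BAFF receptor Tnfrsf13c, each with an adjusted p of 0.999. For BP minus Rag1 the 8 receptors had a median of -0.12. Ccr10, Ccr3, Cxcr6, Cxcr2 and Tnfrsf17 (BCMA) were too dim to be tested.

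Other chemokines did pass. Of 28 listed, 18 were tested, and 1 rose in B6 against Rag1, 2 rose in BP against Rag1, and 1 rose and 1 fell in B6 against BP. Over all tested genes 0.391%, 3.26% and 0.582% were called in these comparisons, in either direction. Ccl5, made by cytotoxic lymphocytes, was the one higher in B6. It read 156 to 277 in Rag1, 176 to 215 in BP and 977 to 1297 in B6, and differed by 2.57 ± 0.26 from Rag1 (adjusted p = 0.000902) and 2.47 ± 0.26 from BP (adjusted p = 0.00102). The monocyte attractant Ccl8 read 35.9 to 62.4 in Rag1, 340 to 753 in BP and 138 to 224 in B6. It was higher in BP than in Rag1 by 2.93 ± 0.36 (adjusted p = 0.0061), and missed the threshold only without Rag1 replicate 1 (adjusted p = 0.0525). For B6 against Rag1 it differed by 1.66 (adjusted p = 0.147).

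Pf4, a chemokine of platelets, read 51.9 to 72.5 in Rag1, 98.1 to 250 in BP and 24.9 to 53.9 in B6. BP was higher than Rag1 by 1.29 ± 0.30 (adjusted p = 0.0414) and B6 lower than BP by -1.56 ± 0.30 (adjusted p = 0.0465). These calls were close to the threshold: under the 22 alternatives 8 and 9 of them passed, with adjusted p up to 0.161 and 0.233. Among macrophage and dendritic cell markers, by their brightest probe sets, 0 of 10 passed in limma, with 0, 4 and 3 at an unadjusted p under 0.05 in the order above, and their summed intensity was 7626 to 8897 in Rag1, 7511 to 8117 in BP and 5442 to 8259 in B6. Over all tested genes 5.80%, 19.1% and 13.9% had an unadjusted p under 0.05 in those comparisons. The 4 markers with such a p for BP minus Rag1 were all higher in BP, with adjusted p from 0.0538 to 0.169. They were C1qa (0.83), C1qb (1.16) and C1qc (0.60), which encode complement C1q made by macrophages, and Csf1r (0.54), a growth factor receptor of macrophages. Of the 10 markers 6 had a positive and 4 a negative difference. The negative ones were Lyz2 (-0.31), Cd14 (-0.28), Cd68 (-0.14) and Adgre1 (-0.01). Another probe set of C1qb was called higher in BP than in Rag1 (1.63, adjusted p = 0.0113), and the remaining one gave -0.21 (adjusted p = 0.816). The part of those cells in the Ccl8 and Pf4 values was not tested.

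Of 18 genes listed for IgA induction and lymphoid tissue, 10 were tested and 0 passed in limma. Against 5.80%, 19.1% and 13.9% of all genes, 2, 4 and 1 of the 10 had an unadjusted p under 0.05. Those with the smallest p for B6 minus Rag1 were Ltb, a lymphotoxin chain needed for lymphoid tissue (0.64, adjusted p = 0.695), and Aldh1a1, a retinoic acid producing enzyme (0.61, adjusted p = 0.772). For BP minus Rag1 they were Aldh1a1 (0.88, adjusted p = 0.064) and Cd40, the B cell costimulatory receptor (1.00, adjusted p = 0.169). For B6 minus BP they were the lymphotoxin receptor Ltbr (0.51, adjusted p = 0.228) and Cd40 (-0.60, adjusted p = 0.518). A dimmer probe set of Cd40 had the opposite signs, at -0.17 for BP minus Rag1 (adjusted p = 0.870) and 0.06 for B6 minus BP (adjusted p = 0.963). Ltb read 23.5 to 27.3 in Rag1, 34.2 to 68.9 in BP and 38.5 to 50.7 in B6, so the Rag1 arrays lay below all others.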

How the data were processed

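Affymetrix arrays of 9 samples were analysed from biotin-labelled cRNA made from 20 µg of total RNA, per the labels' protocols. The values the authors deposited are linear intensities, lowest 1, for 45101 probe sets; the software and any scaling are not given in the sources used here. Array medians were 29.4 to 48.0. By the platform's annotation, 34945 probe sets map to 1 symbol, 932 to several and 9160 to none. Groups came from sample titles.

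Values were quantile-normalized after log2(value + 16). The 64 controls and the lowest 40% of probe sets by mean were left out, and 27022 were tested (15 of 21 member probe sets) by limma (version 3.58.1, R 4.3.3; files were read with the data.table package, version 1.17.8): all 9 arrays in 1 fit, intensity trend, two-sided, 95% intervals from the moderated fit. The fit was tested on simulated data. Fold changes on this scale understate dim genes, and 3 arrays per group limit the precision. Figures used matplotlib 3.10.9.

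Members, lists and tests were chosen with earlier results of these data known. The rule named all members and receptors, list genes that passed, or the 2 with the smallest p where none did, and the 3 genes most like the member with the smallest p. Outside the rule, Casp1, Adam10 and Adam17 were described for their roles. Acta2, Pdgfrb, Vim, Csf1r, the C1q genes, Lyz2, Cd14, Cd68, Adgre1, Krt8, Krt18 and Cdh1 were named after their values were seen. So were dimmer probe sets of list genes. Replicate numbers showed no sign of pairing the samples: 1 of 9 same-number pairs had deviations correlated above 0.1 (range -0.19 to 0.23). Of 18 pairs with other numbers, 4 did (range -0.17 to 0.18). With 3 arrays per group this check cannot exclude pairing.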

Additional observations from a re-analysis of the deposited data

How the results depend on the processing

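Across 27 differences (9 genes in 3 comparisons), 22 alternatives gave 588 values: 532 kept the sign and the side of the threshold, 21 passed it, and 35 changed sign, none of those passing; 16 of the 27 differences never changed sign. The number of members called, 0 in each comparison, became for B6 minus Rag1 1 with only the groups compared, array weights, the actin covariate or BP replicate 2 alone. For BP minus Rag1 it became 1 with median centring, deposited values, the lowest 60% left out (7 members tested) or the actin covariate, and 2 with array weights or BP replicate 2 alone. For B6 minus BP it became 2 with the actin covariate or BP replicate 2 alone. Leaving out 1 array gave 0 to 1, 0 to 3 and 0 to 1 members, the highest each time without BP replicate 2. With the replicate number as a block the counts were 0, 0 and 0, which changed no member's call. The fit without BP replicate 2 called 1.31%, 19.6% and 11.3% of all probe sets, and the actin covariate 1.09%, 15.5% and 12.9%. Array weights called 3.89% for B6 minus Rag1 and 14.9% for BP minus Rag1. Only the groups compared gave 1.25% for B6 minus Rag1. For BP minus Rag1, median centring, deposited values and the lowest 60% left out gave 4.49%, 2.85% and 7.25%.

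Sign changes were as follows. Cxcl1 in BP minus Rag1 was -0.12 with median centring, -0.10 with deposited values, -0.0093 with pseudocount 1, -0.84 with the actin covariate and -0.81 with BP replicate 2 alone. Cxcl1 in B6 minus Rag1 was 0.10 with array weights and 0.010 with the mean of probe sets, and in B6 minus BP 0.47 with the actin covariate and 0.72 with BP replicate 2 alone. Cxcl13 in B6 minus Rag1 was -0.039 with deposited values and -0.0091 with the actin covariate. Ccl20 in B6 minus BP was -0.0040 with deposited values, -0.049 with the actin covariate and -0.21 with BP replicate 2 alone, and in BP minus Rag1 -0.024 with array weights. In BP minus Rag1, the actin covariate gave -0.10 for Cxcl16, 0.68 for Il18 and 0.30 for Tnfsf13b, and BP replicate 2 alone gave 0.68 for Il18 and 0.28 for Tnfsf13b. With 1 array left out, the ranges that crossed 0 were, in B6 minus Rag1, -0.0087 to 0.10 for Ccl25, -0.29 to 0.065 for Cxcl1, -0.038 to 0.35 for Cxcl13 and -0.16 to 0.11 for Cxcl16. In BP minus Rag1 they were -0.20 to 0.41 for Cxcl1, -0.30 to 0.33 for Tnfsf13b, -0.032 to 0.36 for Ccl20 and -0.90 to 0.018 for Il18, and in B6 minus BP -0.042 to 0.34 for Ccl20 and -0.50 to 0.11 for Cxcl1. The cause was not tested.

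Over all probe sets, 89, 1027 and 171 were called for B6 minus Rag1, BP minus Rag1 and B6 minus BP. The counts became 338, 183 and 51 with only the groups compared, 1050, 4023 and 856 with array weights, 294, 4191 and 3488 with the actin covariate, 338, 5978 and 5700 with BP replicate 2 alone and 354, 5303 and 3046 without it. Leaving out another array gave 37 to 93, 18 to 836 and 56 to 110. Median centring gave 499 and deposited values 108 for B6 minus BP, and without the intensity trend 518 and 89 were called for BP minus Rag1 and B6 minus BP. Dim probe sets (Ccl20, Tnfsf13b, Cxcl13) have the least signal over background, and 3 arrays per group limit what can pass.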
